A study of Mus musculus with 20 samples.

Results

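The genes described here are 9 keratins and vimentin, which build the intermediate filaments of epithelial and mesenchymal cells: Krt7, Krt8, Krt18, Krt19, Krt20, Krt23, Krt5, Krt14, Krt17 and Vim. They were chosen by symbol, and all 10 were found among the 55822 genes of the count table. Poly(A) RNA of whole kidney was sequenced from male C57BL/6J mice aged 8 weeks, dosed daily on 6 days and killed on day 7. The 2 groups compared were 5 samples from control mice that received PBS and 5 from mice that received puberulic acid, a tropolone made by some Penicillium moulds, at 1 mg per day. Whether an animal was dosed by gavage or by intraperitoneal injection is not said for each animal, and the labels differ on the route. The labels also describe mice on a normal lot and on a toxic lot of the supplement Choleste-Help. The 10 columns left over fall by name into 2 sets of 5, but the names do not say which set is which lot, so the lots are not analysed here.

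Keratin filaments are built from pairs of 1 acidic (type I) and 1 basic (type II) chain. Keratin 8 and keratin 18 are the pair of simple epithelia, keratins 7 and 19 join them in ducts, and keratins 5 and 14 form the pair of basal cells in layered epithelia. In the healthy kidney simple keratins are found mainly in the collecting duct and distal tubule, and keratin 20 is known from gut, from the umbrella cells of the urothelium and from damaged tubules. Vimentin is the type III filament protein of fibroblasts, leukocytes, endothelium and podocytes, and it also appears in tubule cells that have lost their differentiated form. Because whole tissue was measured, a change in the RNA of a cell and a change in the number of such cells cannot be told apart in any of these values.

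Of the 10 genes, 7 were called higher with puberulic acid and none was called lower, where 34.2% of all 16266 genes tested were called higher and 31.1% lower (65.3% in either direction). A gene was called at an adjusted p-value under 0.05 in edgeR's quasi-likelihood test. Krt20 rose most, followed by Krt5, Krt19, Vim, Krt18, Krt8 and Krt23. Krt7 was tested and not called, and Krt14 and Krt17 had too few counts to be tested. Krt20 and Krt5 reached 10 counts in no control library, so that they entered the test through the puberulic acid libraries alone and had to differ. The libraries of the groups did not overlap for Krt8, Krt18, Krt19, Krt20, Krt5, Krt17 and Vim, all higher with puberulic acid. Among all genes tested, which do not include Krt17, 26.1% had every puberulic acid library above every control.

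Promoter sequence was matched by symbol in RefSeq (GRCm38.p6) for 8 of the 10 genes, the exceptions being Krt17 and Krt19. The 250 bases before the start site are shown for Krt20, the gene that rose most, for the Krt8 and Krt18 pair, and for Krt7, which was not called. They lie at chr11:99438154-99438403 on the minus strand, chr15:102004343-102004592 on the minus strand, chr15:102027966-102028215 on the plus strand and chr15:101412153-101412402 on the plus strand, in that order, and are written 5′ to 3′ in the direction of the gene. Capitals mark matches on either strand to TATAAA (the TATA box), TGANTCA (AP-1), GGGCGG (the GC box) or CCAAT (the CCAAT box).
Krt20: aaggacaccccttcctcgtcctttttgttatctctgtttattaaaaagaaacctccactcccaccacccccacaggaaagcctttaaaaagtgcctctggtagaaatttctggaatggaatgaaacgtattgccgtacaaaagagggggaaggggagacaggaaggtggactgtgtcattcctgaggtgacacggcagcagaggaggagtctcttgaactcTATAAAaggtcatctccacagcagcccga
Krt8: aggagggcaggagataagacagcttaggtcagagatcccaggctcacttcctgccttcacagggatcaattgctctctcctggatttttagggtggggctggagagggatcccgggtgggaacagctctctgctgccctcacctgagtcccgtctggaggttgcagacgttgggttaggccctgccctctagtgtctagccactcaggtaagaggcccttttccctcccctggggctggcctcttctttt
Krt18: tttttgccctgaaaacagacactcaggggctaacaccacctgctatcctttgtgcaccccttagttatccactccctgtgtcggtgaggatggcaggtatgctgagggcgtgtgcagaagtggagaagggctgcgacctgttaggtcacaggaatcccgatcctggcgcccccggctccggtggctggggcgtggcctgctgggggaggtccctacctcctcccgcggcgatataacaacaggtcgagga
Krt7: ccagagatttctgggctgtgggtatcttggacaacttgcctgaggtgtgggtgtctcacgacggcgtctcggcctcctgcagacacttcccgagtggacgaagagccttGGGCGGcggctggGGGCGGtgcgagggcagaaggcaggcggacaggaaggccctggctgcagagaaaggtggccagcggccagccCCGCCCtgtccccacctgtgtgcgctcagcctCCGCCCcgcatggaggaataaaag
Krt20 had a TATAAA from base -29 to -24, counted back from the start site, and Krt7 had 4 GC boxes. None of the 4 motifs was found in these letters for Krt8 or Krt18. Vim, not shown, had 1 TATAAA and 2 CCAAT matches. Over 32851 promoter windows of 250 bases, 12.4% held TATAAA, 6.75% TGANTCA, 32.7% GGGCGG and 33.8% CCAAT. The base composition also differed, with 48% G and C for Krt20 against 66% for Krt7. A match is a description of the letters only.

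Levels are given in CPM, counts divided by the TMM-scaled library size, in the order of replicates 1 to 5. Krt8, the type II keratin of simple epithelia, stood at 131.4, 125.3, 142.7, 143.0 and 130.9 CPM in controls and at 322.2, 441.8, 394.7, 413.3 and 303.6 CPM with puberulic acid. All 5 dosed libraries lay above all controls, and the controls were close together, with an SD of 5.84% of their mean. The log2 fold change of Krt8 was 1.48 ± 0.11 (SE, adjusted p = 4.83e-07), the smallest SE among the members that rose.

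Krt7, the type II keratin of duct epithelium, stood at 91.99, 124.8, 119.7, 135.0 and 100.4 CPM in controls and at 128.5, 115.4, 132.9, 115.8 and 97.24 CPM with puberulic acid. The groups overlapped almost completely. Its log2 fold change was 0.04 ± 0.12 (SE, adjusted p = 0.764). This depends on how libraries are scaled: with total counts in place of TMM factors it was 0.55 (adjusted p = 0.00124), where the median of all genes tested moved from 0.05 to 0.56. Relative to that median, Krt7 lay close to the middle of all genes under either scaling.

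Krt18, the type I partner of keratin 8, stood at 14.89, 14.61, 15.59, 17.14 and 16.62 CPM in controls and at 33.03, 83.7, 80.27, 89.64 and 43.86 CPM with puberulic acid. Replicates 2, 3 and 4 were near 80 to 90 CPM and replicates 1 and 5 were lower, but all were above the controls. The log2 fold change was 2.07 ± 0.25 (SE, adjusted p = 1.9e-05).

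Krt19, the smallest type I keratin and one of ducts and progenitor cells, stood at 1.94, 2.162, 1.909, 2.181 and 1.364 CPM in controls and at 11.99, 21.55, 28.63, 26.12 and 14.43 CPM with puberulic acid. Replicates 1 and 5 were again the lower ones of the dosed group. The log2 fold change of Krt19 was 3.42 ± 0.27 (SE, adjusted p = 5.54e-07).

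Krt20, a type I keratin, had 1 to 5 counts in each control library, or 0.2283, 0.2636, 0.06364, 0.2493 and 0.1948 CPM. With puberulic acid it stood at 292.5, 525.3, 446.4, 459.7 and 350.7 CPM. Replicates 1 and 5 were the lowest of the dosed group here too, and the highest and lowest dosed libraries differed 1.80-fold. The ratio of summed counts, 52949 against 17, was 2009 after scaling, with an exact 95% interval of 1255 to 3449 that covers counting error only. The fitted log2 fold change was 10.96 ± 0.28 (SE, adjusted p = 3.15e-10).

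Krt23, a type I keratin of low level here, stood at 3.196, 1.793, 1.336, 2.617 and 1.623 CPM in controls and at 2.524, 5.623, 4.448, 3.015 and 2.571 CPM with puberulic acid. The groups overlapped, and control replicate 1 lay above 3 of the dosed libraries. Its log2 fold change of 0.78 ± 0.31 (SE, adjusted p = 0.0435) passed the threshold narrowly. The call was lost in 8 of 18 alternative fits, with adjusted p-values from 0.00244 to 0.136 over all 18, and it was lost with the replicate number as a block (adjusted p = 0.0925) and without the filter on low counts (adjusted p = 0.0589). Leaving out control replicate 2, 3 or 5, or puberulic acid replicate 2, 3 or 4, also ended it, with adjusted p-values of 0.0938, 0.104, 0.0952, 0.136, 0.102 and 0.0601 in that order.

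**Figure D1:**
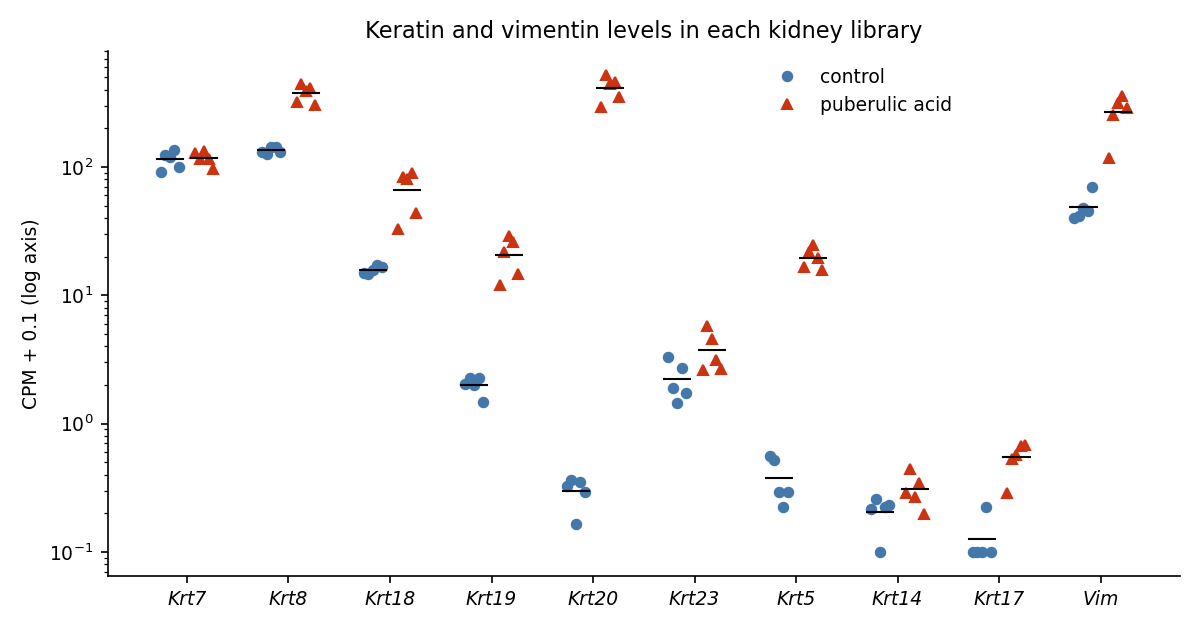
Level of each of the 10 genes in every library, as CPM + 0.1 on a log axis; circles are the 5 controls, triangles the 5 puberulic acid libraries and bars the group means. Krt20 goes from a mean of 0.200 to 414.9 CPM, while the Krt7 groups lie on each other and the Krt23 and Krt14 groups overlap.

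Among the keratins of layered epithelia, Krt5 changed and its usual partner stayed near the detection limit. Krt5, the type II keratin of basal cells, stood at 0.4565, 0.4218, 0.1909, 0.1246 and 0.1948 CPM in controls, or 24 counts in all, and at 16.37, 21.55, 24.78, 19.27 and 15.71 CPM with puberulic acid. Every dosed library was far above every control. The log2 fold change was 6.07 ± 0.28 (SE, adjusted p = 1.55e-08), and the ratio of summed counts was 67.0 (exact 95% interval 44.9 to 104.8, counting error only).

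Krt14, the type I partner of keratin 5 in basal cells, had 0 to 3 counts in each control and 3 to 8 in each puberulic acid library. The 3-count floor was 0.158 to 0.195 CPM in control and 0.0964 to 0.128 CPM in puberulic acid libraries. The ratio of its summed counts, 26 against 9, was 1.86 with an exact 95% interval of 0.846 to 4.52 (counting error only), and a difference was not detectable at this depth. Without the filter on low counts its log2 fold change was 0.90 (adjusted p = 0.292).

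Krt17, a type I keratin that skin switches on after wounding, had 2 counts in control replicate 4 and none in the other controls. It had 5, 10, 11, 14 and 18 counts in puberulic acid replicates 1 to 5, so the groups did not overlap. The ratio of summed counts, 58 against 2, was 18.7 (exact 95% interval 4.95 to 158.1, counting error only). Without the filter its log2 fold change was 3.91 (adjusted p = 0.00112). Krt14, Krt16 and Krt17 are similar in sequence, and Salmon, which the submitters' processing notes name, divides reads that fit several transcripts by estimation, so the low values of each are uncertain.

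Vim stood at 39.89, 41.13, 47.6, 45.68 and 69.48 CPM in controls and at 116.5, 252.1, 317.1, 359.9 and 287.4 CPM with puberulic acid. Control replicate 5 was above the other controls and puberulic acid replicate 1 below the other dosed libraries, and the groups did not overlap. The log2 fold change was 2.45 ± 0.27 (SE, adjusted p = 8.72e-06), and it was 2.62 without puberulic acid replicate 1.

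Divided by the length of the principal transcript, which lets levels be compared between genes, Krt8 was the leading member in controls at 68.8 ± 4.02 CPM per kilobase (SD, n = 5). The length taken for Krt7, 4094 bases, was the longest among the members, against 1958 for Krt8. In CPM the control means of Krt7 and Krt8 were closer, at 114.4 and 134.7, so the place of Krt7 depends on this length. Krt7 followed at 27.9 ± 4.33 and Vim at 22.2 ± 5.48 CPM per kilobase (SD, n = 5), with ranges that overlapped each other. Krt18 came next at 10.97 ± 0.758 CPM per kilobase (SD, n = 5), below both in every library. Krt23 and Krt19 overlapped at 1.35 and 1.21 CPM per kilobase, and Krt5, Krt20, Krt14 and Krt17 were at 0.126 or less. Krt20 was thus among the lowest members in control kidney.

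With puberulic acid, Krt20 came first at 215.3 ± 48.1 CPM per kilobase (SD, n = 5) and Krt8 second at 191.6 ± 30.4 (SD, n = 5). Their ranges overlapped, and Krt20 was above Krt8 in 4 of 5 libraries. Vim at 121.6, Krt18 at 46.0 and Krt7 at 28.8 CPM per kilobase followed, each with a range that overlapped the one before it. Krt19 at 13.04 CPM per kilobase lay below Krt7 in every library and overlapped Krt5 at 8.89. Krt23 at 2.32, Krt17 at 0.287 and Krt14 at 0.122 CPM per kilobase were lowest, with Krt17 and Krt14 overlapping.

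Summed over all keratins by type, the balance between type I and type II RNA moved. The control libraries had a type I sum of 16.3 to 21.5 CPM per kilobase and a type II sum of 93.0 to 110.0, so that type I was 0.156 to 0.195 of type II. With puberulic acid the type I sum was 191.4 to 354.2 and the type II sum 190.5 to 269.5 CPM per kilobase, and type I was 0.919 to 1.31 of type II. No library of either group fell in the range of the other. Within type I, Krt18 held between 55.5% and 70.9% in controls and between 12.01% and 19.1% in dosed libraries, while Krt20 went from 0.200% to 0.766% up to 73.1% to 79.3%. Within type II, Krt8 held between 65.0% and 72.2% in controls and between 79.0% and 83.7% in dosed libraries, and Krt7 went from between 24.2% and 30.99% to between 10.5% and 15.1%. These sums are descriptions of the chosen genes and carry no test. The type II sums and the Krt7 share depend on the 4094 bases taken as the length of Krt7.

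**Figure D2:**
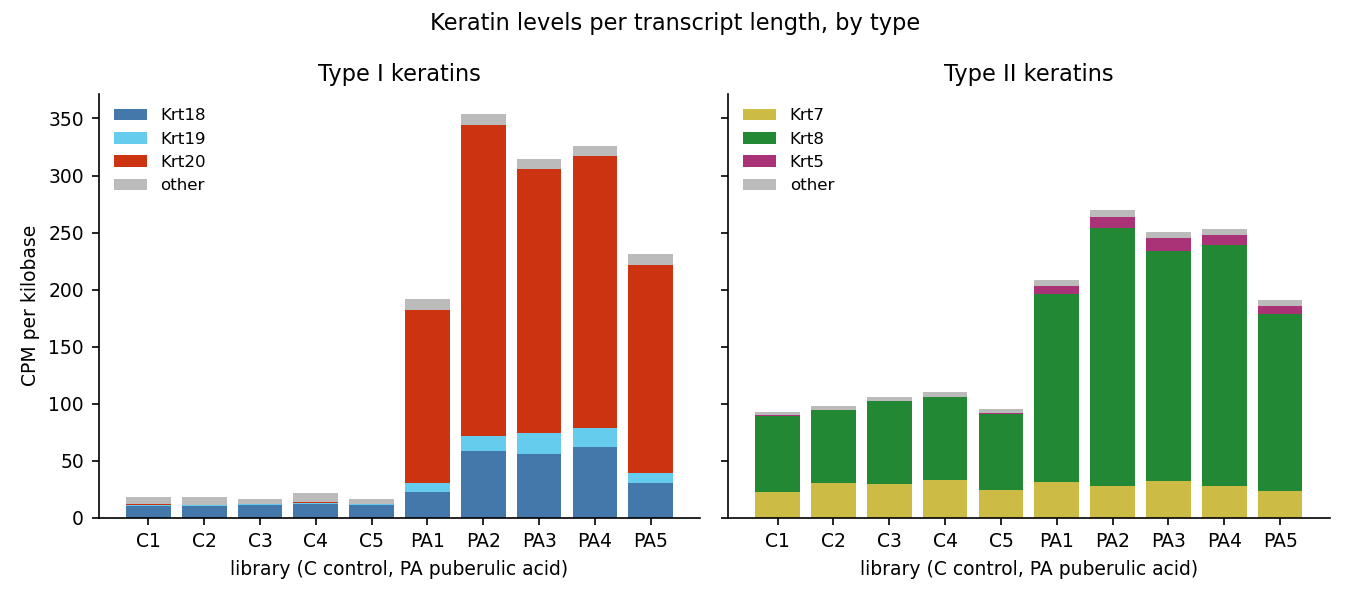
Keratin RNA in each library as CPM per kilobase of principal transcript, stacked by gene, for type I (left) and type II (right); C1 to C5 are controls and PA1 to PA5 puberulic acid libraries. Type I RNA is 16.3 to 21.5 in the control bars and between 191.4 and 354.2 in the dosed ones, mostly Krt20, while the Krt7 segment keeps a similar height across the 10 libraries.

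A ratio between 2 keratins of the same library hardly depends on how libraries are scaled, and 4 such ratios were tested. The log2 ratio of Krt20 to Krt18 was -5.78 ± 0.48 in controls and 2.72 ± 0.34 with puberulic acid (SD, n = 5 each), a difference of 8.50 that ran from 6.51 to 9.09 with pseudocounts of 1 and 0.01, since the controls held 1 to 5 Krt20 counts (exact two-sided permutation p = 0.00794, the smallest that 5 against 5 can give, 0.0106 adjusted over the 4). Krt19 to Krt18 went from -3.00 ± 0.31 to -1.65 ± 0.21 (SD, n = 5 each), a difference of 1.34 with the same exact p-values. Krt7 to Krt8 went from -0.25 ± 0.21 to -1.66 ± 0.24 (SD, n = 5 each), a difference of -1.41, again with the same exact p-values. In these 3 ratios all 5 dosed libraries lay on one side of all controls. Krt8 thus rose relative to Krt7, and Krt19 relative to Krt18, within the libraries. Krt20 reached 10 counts in no control library, so nothing is drawn from the p-value of its ratio.

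The Krt18 to Krt8 ratio of the classical pair did not pass. Its log2 values were -3.13, -3.09, -3.19, -3.05 and -2.97 in controls and -3.28, -2.40, -2.30, -2.2 and -2.79 with puberulic acid. The difference was 0.49 (exact two-sided permutation p = 0.0635, adjusted 0.0635). Puberulic acid replicate 1 was below every control and the other 4 were above every control. Without that replicate the difference was 0.665 (exact permutation, adjusted p = 0.00794). Its adjusted exact permutation p-values over all alternatives ran from 0.00794 to 0.125.

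**Figure D3:**
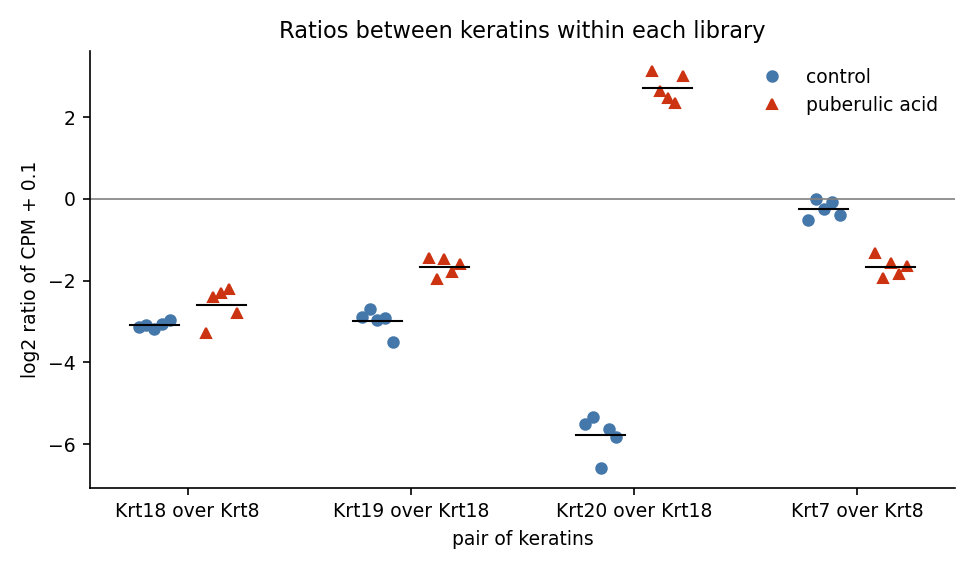
Log2 ratio of CPM + 0.1 between 2 keratins in each library; circles are controls, triangles puberulic acid libraries and bars group means. The groups are apart for 3 ratios, while for Krt18 over Krt8 the triangle of replicate 1, at -3.28, lies under the controls.

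Some members had the same high and low libraries within a group. With group means removed, log2(CPM + 1) of Krt18 correlated with Krt20 at r = 0.91, with Krt8 and with Krt19 at 0.88 each, and with Vim at 0.74 over the 10 libraries. Over all pairs of the 8 tested members r ran from -0.25 to 0.91: Krt7 had 0.33 or less with every other one, Vim had 0.40 with Krt8, 0.21 with Krt5 and 0.08 with Krt23, and Krt8 had 0.49 with Krt5. The libraries share their depth and composition, so these values only describe which members had the same high and low libraries. The lowest dosed library was replicate 1 for Krt18, Krt19, Krt20, Krt17, Krt23 and Vim, and replicate 5 for Krt7, Krt8, Krt5 and Krt14.

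The genes whose pattern over the 10 libraries was most like Krt20, by Pearson r of log2(CPM + 1) among 15132 genes, were Hmga1 (r = 0.9991), Fosl1 (0.9988) and Il1rn (0.9987). Hmga1, which encodes a chromatin protein, went from 27.6 ± 1.78 to 292.7 ± 34.0 CPM (SD, n = 5 each). Fosl1, an AP-1 subunit, went from 0.0514 to 63.2 CPM, and Il1rn, which encodes the interleukin-1 receptor antagonist, from 0.0808 to 128.2 CPM. With group means removed r was 0.79, 0.46 and 0.41. The order therefore rests mostly on the difference between the groups.

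For Krt8 the nearest genes were D730045A05Rik (r = 0.9962), Xrcc2 (0.9953) and Taf1d (0.9952), with r of 0.92, 0.91 and 0.89 after group means were removed. Xrcc2, a DNA repair gene, went from 3.75 ± 0.459 to 25.3 ± 4.55 CPM (SD, n = 5 each). For Vim they were Fam83d (0.9980), Fen1 (0.9951) and Ifngr1 (0.9942), with 0.98, 0.96 and 0.96 after removal. Fam83d, a gene of the mitotic spindle, went from 0.331 ± 0.254 to 4.17 ± 1.49 CPM and Fen1, of DNA replication, from 7.91 ± 1.36 to 27.4 ± 6.67 CPM (SD, n = 5 each). These are descriptions over 10 libraries with no test.

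The keratin family as a whole has 54 genes in the table. At least 1 count was seen for 21 of them in some control library and for 40 in some puberulic acid library, while 13 had none anywhere. A single count is enough for this, the same share over all genes was not computed, and the TMM-scaled library sizes were larger with puberulic acid, so no change is read from it. Of the 14 keratins with enough counts to be tested, 10 were called higher and 1 lower, against the 34.2% and 31.1% of all genes. Outside the members 7 were tested, of which 4 rose, 1 fell and 2 (Krt10 and Krt15) did not pass. Of these 7, 3 reached 10 counts in no control library and had to differ.

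Krt76, a type II keratin of oral epithelium, had 1 count in control replicate 2 and none in the other controls, and stood at 3.6, 6.347, 5.507, 6.601 and 5.334 CPM with puberulic acid. The ratio of summed counts, 704 against 1, had an exact 95% interval of 81.2 to 17960 (counting error only), and the adjusted p-value was 6.76e-08. Krt16, a type I keratin of wounded skin, had no control count. Its mean with puberulic acid was 1.87 ± 0.956 CPM (SD, n = 5; adjusted p = 5.03e-05), which is at least 9.60-fold higher than the largest 3-count floor of a control library. Krt12, the type I keratin of the cornea, likewise had no control count. Its mean was 0.833 ± 0.223 CPM (SD, n = 5; adjusted p = 3.62e-05), at least 4.28-fold higher than that floor. These 3 genes were thus called at low levels, Krt12 below 1 CPM on average.

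Krt222 rose from 0.747 ± 0.124 to 2.15 ± 0.542 CPM (SD, n = 5 each), a log2 fold change of 1.52 (adjusted p = 0.000187). Krt80, a type II epithelial keratin, was the only keratin called lower with TMM scaling. It stood at 9.587, 11.34, 11.07, 11.9 and 11.17 CPM in controls and at 9.242, 5.921, 6.311, 5.582 and 5.72 CPM with puberulic acid, where replicate 1 lay near the controls. Its log2 fold change of -0.75 ± 0.16 (SE, adjusted p = 0.00129) became -0.24 with total-count scaling (adjusted p = 0.187).

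**Figure D4:**
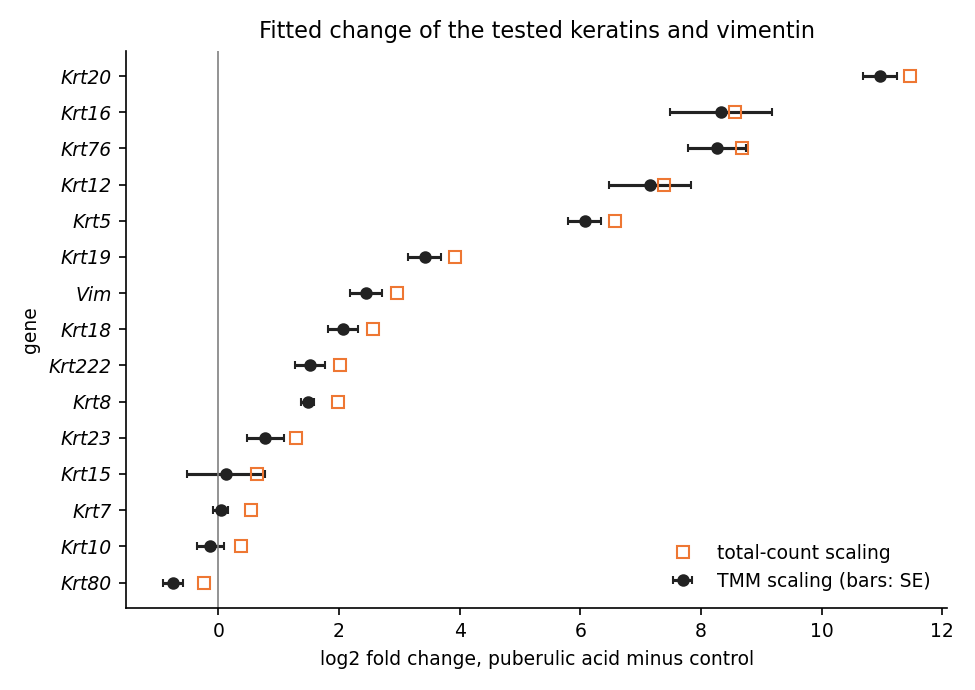
Fitted log2 fold change, puberulic acid minus control, of the 14 tested keratins and Vim; filled points with SE bars use TMM scaling and open squares total-count scaling. Every gene moves right with total counts, Krt7 from 0.04 to 0.55 and Krt80 from -0.75 to -0.24; the points of Krt12, Krt16 and Krt76 rest on at most 1 control count.

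Desmosomes and hemidesmosomes anchor keratin filaments at the cell border. Of 18 such genes listed, 17 were in the table and 13 could be tested, of which 10 rose and 3 fell, where 34.2% and 31.1% of all genes did. Their median log2 fold change was 0.32, where all genes had 0.05. Plec, which encodes the linker plectin, rose from 53.2 ± 15.1 to 168.2 ± 18.8 CPM (SD, n = 5 each; log2 fold change 1.66, adjusted p = 6.49e-06). Ppl, which encodes periplakin, rose from 6.03 ± 1.77 to 17.1 ± 2.96 CPM (SD, n = 5 each; adjusted p = 2.79e-05). Evpl, which encodes the related envoplakin, fell from 28.2 ± 3.28 to 13.1 ± 1.70 CPM (SD, n = 5 each; log2 fold change -1.10, adjusted p = 7.08e-06). Pkp4, of the plakophilin family, had -0.63 (adjusted p = 0.000444), and -0.12 with total counts (adjusted p = 0.349). The other gene that fell, Dst, named after its value was seen, had -0.48 (adjusted p = 0.0173) and turned to 0.03 with total counts (adjusted p = 0.888).

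Other intermediate filament and lamin genes numbered 16, of which 13 were tested, 10 rose and none fell, where 34.2% of all genes rose. Of the 10 that rose, Nefl, Nefm, Nefh and Ina reached 10 counts in no control library. They were tested through the puberulic acid libraries alone and had to differ. The same holds for Prph, which had 14 counts over all controls together and at most 10 in a control library. The median of 1.56 includes all of these genes. Lmnb2 (0.80, adjusted p = 0.000146) and Synm (1.18, adjusted p = 0.0201) were called higher with total counts too. Nefm, a neurofilament gene, went from 0.127 ± 0.0905 to 6.82 ± 3.14 CPM (SD, n = 5 each; log2 fold change 5.64, adjusted p = 6.31e-06). Ina, another neuronal filament gene, had no control count and reached 0.763 ± 0.226 CPM (SD, n = 5; adjusted p = 5.04e-05).

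Of 13 transcription factors known to act on keratin genes, 11 were tested, of which 5 rose and 1 fell, with a median of 0.62 against 0.05. These counts are read beside the 34.2% of all genes that rose and the 31.1% that fell, and nothing particular to the factors was shown. With total counts Trp63 (1.13, adjusted p = 0.0267), Grhl2 (0.80, adjusted p = 0.00303) and Ehf (0.66, adjusted p = 0.000628) were called higher as well. Sox9, a factor of progenitor and regenerating tubule cells, went from 0.618 ± 0.222 to 37.2 ± 8.85 CPM (SD, n = 5 each, log2 fold change 5.89, adjusted p = 1.23e-08). It had 4 to 14 counts in a control library, too few in some to pass the filter there. Sox9 thus entered the test through the puberulic acid libraries, and its call is not independent of the filter. Klf5 went from 1.98 ± 0.891 to 13.7 ± 1.44 CPM (SD, n = 5 each; log2 fold change 2.79, adjusted p = 3.15e-06). Ovol1, an epithelial repressor, fell from 13.9 ± 1.87 to 4.44 ± 0.697 CPM (SD, n = 5 each; log2 fold change -1.65, adjusted p = 2e-06).

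The list of 14 adhesion, mesenchymal and motility genes often measured beside vimentin was tested in full, and 12 rose and none fell, where 34.2% of all genes rose, with a median of 1.49 against 0.05. Among the 12 is Cdh1, named after its value was seen, which encodes the epithelial adhesion protein E-cadherin and had a log2 fold change of 0.25 (adjusted p = 0.0199). Snai2 (0.67, adjusted p = 0.0432) and Twist1 (1.11, adjusted p = 0.0266) were called higher with total counts. Cd44, which encodes a hyaluronan receptor, went from 2.10 ± 0.854 to 89.3 ± 15.9 CPM (SD, n = 5 each; log2 fold change 5.41, adjusted p = 1.58e-08). Tagln, of smooth muscle and myofibroblasts, went from 28.7 ± 9.79 to 266.0 ± 123.2 CPM (SD, n = 5 each; log2 fold change 3.21, adjusted p = 1.3e-05).

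**Figure D5:**
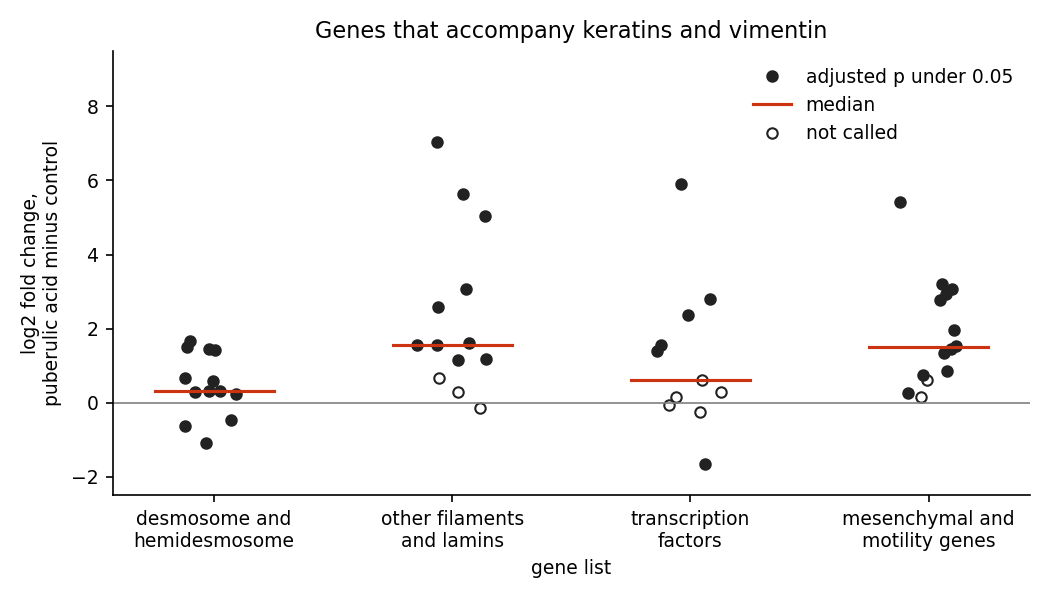
Log2 fold change, puberulic acid minus control, of the tested genes in 4 lists; filled points have an adjusted p-value under 0.05, open points do not, and red bars are list medians. The medians are 0.32, 1.56, 0.62 and 1.49 from left to right. Nefl, Nefm, Nefh, Ina and Prph in the second list had to differ, and Sox9 in the third also entered through the puberulic acid libraries. The 4 genes called lower lie in the list of desmosome genes and that of transcription factors.

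Markers of other cells moved beside these genes, and their counts of calls stand against the 34.2% of all genes called higher and 31.1% called lower. The summed level of 6 fibroblast and pericyte markers was 96.5 to 141.6 CPM in controls and 428.6 to 1550 CPM in the dosed libraries, with 5 of 6 called higher and none at 0 in a whole group. That of 6 macrophage markers was 75.3 to 149.0 CPM and 176.6 to 513.9 CPM, with 4 of 6 higher. Col1a1 and Col3a1 made most of the dosed fibroblast and pericyte sum, at means of 353.2 and 448.4 CPM (log2 fold changes 4.14 and 4.12). Pdgfrb, Dcn and Lum had smaller log2 fold changes of 1.09, 1.24 and 1.18, and Pdgfra was not called (0.33). With total counts Adgre1 and Csf1r of the macrophage list and Pdgfra of the fibroblast list were called higher as well. Both sums were lowest among the dosed libraries in replicate 1, which also had the lowest Vim. At about the share of all genes, of 6 endothelial markers 2 were called lower and none higher (247.3 to 421.9 CPM against 134.9 to 348.6 CPM). Also at about that share, of 5 podocyte markers 1 was lower (227.4 to 495.4 CPM against 109.4 to 436.6 CPM). With total-count scaling these 3 calls, of Kdr, Ehd3 and Nphs1, were lost. Synpo of the podocyte list was then called higher (log2 fold change 0.79, adjusted p = 0.00784). The part of these cells in the rise of Vim was not tested.

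Urothelium of the renal pelvis also makes Krt5 and Krt20. Of 7 urothelial markers 6 were tested and none was called, though Psca was called higher with total counts (log2 fold change 1.65, adjusted p = 0.0217, in place of 1.14 and 0.102). Their sum was 3.896 to 16.4 CPM in controls and 6.85 to 49.9 CPM in the dosed libraries. The value of 49.9 was that of replicate 3, and the other 4 dosed libraries, at 6.85 to 14.4 CPM, were within the control range. In those 4 libraries Krt5 was 15.71 to 21.55 CPM and Krt20 292.5 to 525.3 CPM, and without replicate 3 the log2 fold change of Krt5 was 5.96. The part of urothelium in the levels of Krt5 and Krt20 was not tested. Of 7 markers of squamous epidermis, Lor and Ivl rose, Krt10 and Krt15 did not pass and 3 were too low to test. Ivl had at most 1 count in a control library and so had to differ. Lor had 5 to 15 counts in a control library, too few in some to pass the filter there. Its call is therefore not independent of the filter either. The sum of the 7 was 5.00 to 12.3 CPM in controls and 13.6 to 17.8 CPM in the dosed libraries, and Dsg1a was at 0 in all controls.

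With TMM scaling the markers of the nephron segments fell or did not pass. All 6 proximal tubule markers were called lower, with sums of 6670 to 9795 CPM in controls and 449.8 to 1176 CPM in the dosed libraries, also lower in each dosed library than in any control. Of 6 principal cell markers of the collecting duct, where Krt7, Krt8, Krt18 and Krt19 are normally made, 5 were lower, with sums of 425.8 to 635.4 CPM and 206.6 to 262.7 CPM. Krt7 was not called with them. With total-count scaling 2 of these 5 calls were lost, Scnn1g (log2 fold change -0.20, adjusted p = 0.136) and Scnn1b, which turned to 0.14 (adjusted p = 0.237). Of 5 markers of the loop and distal tubule 4 were lower, with overlapping sums of 3875 to 5745 CPM and 3144 to 6320 CPM, and with total counts the calls of Slc12a1 (-0.69, adjusted p = 0.18) and Slc12a3 (-0.25, adjusted p = 0.38) were lost and Umod was called higher (0.57, adjusted p = 0.0119). Puberulic acid replicate 1 stood apart from the other dosed libraries in both sums, at 1176 against 449.8 to 567.6 CPM for the proximal list and at 6320 against 3144 to 4035 CPM for the loop and distal list. It was also the lowest dosed library for Krt18, Krt19, Krt20 and Vim. Without it the log2 fold changes of Krt18 and Krt19 were 2.21 and 3.54, and those of Krt20 over all single samples left out were 10.7 to 11.1. Neutrophil markers summed to 0.4745 to 1.769 CPM in controls and to 2.045 to 4.70 CPM with puberulic acid, without overlap. Of 5 such markers 2 were tested. Csf3r was called higher (log2 fold change 1.66, adjusted p = 0.00407) and S100a9 was not (0.66, adjusted p = 0.444). Csf3r had 5 to 23 counts in a control library, too few in some to pass the filter there, so its call is not independent of the filter. Ly6g was at 0 in all libraries. Of 6 lymphocyte markers 3 were tested and none was called, though Cd3g was with total counts (1.24, adjusted p = 0.0421), and their sum was at most 6.20 CPM. These lists contain genes of kidney cells whose share in the tissue was not measured.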

How the data were processed

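The values deposited by the authors are estimated counts for each gene, many of them fractional. Per the submitters' processing notes, the build was GRCm39 and the tools fastp 0.22.0, FastQC 0.12.1, MultiQC 1.28, Salmon 1.10.3 and DESeq2 were used. The annotation release is not given in the sources used here, and poly(A) selection and a directional kit are stated per the labels' protocols. Of 20 columns, 10 were assigned by name to control and puberulic acid mice and 10 were not used. Totals were 18409877 to 24705587 per sample. Symbols were found for 51344 of 55822 identifiers, and transcript lengths came from GENCODE M21 (APPRIS principal transcript).

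Counts were rounded, filtered with filterByExpr, scaled by TMM and tested with edgeR 4.0.16 (quasi-likelihood, robust off, R 4.3.3) on 5 against 5 samples, with Benjamini-Hochberg adjustment over 16266 genes. The script was checked on simulated counts. The SE was taken from the F statistic: the absolute log2 fold change over the root of F. Ratios used log2(CPM + 0.1) and exact permutation in Python 3.11.15. Named genes were the 10 members, every other called keratin, the 2 largest rises and falls of each list, and the 3 genes most like Krt20, Krt8 and Vim. The members and lists were chosen with earlier results of these data known. Alternatives were other scalings and filters, a robust fit, DESeq2 1.42.0, the replicate number as a block, other pseudocounts and leaving out each sample. The labels number the samples of a group without saying that each came from its own mouse, so p-values measure the spread between these samples only.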

Additional observations from a re-analysis of the deposited data

Results flagged for a closer look

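A value was singled out in a group of 5 when more than 0.71 of that group's range lay between it and its nearest neighbour. Among 36 groups of values for the members, the called keratins and the ratios, 5 held such a value, where chance gives about 1 in 20. Vim in control replicate 5 was 69.5 CPM against 39.9 to 47.6 CPM in the other controls (gap 0.739 of the range). Krt80 in puberulic acid replicate 1 was 9.24 CPM against 5.58 to 6.31 CPM (gap 0.801). The other 3 rest on at most 3 counts per library. Krt14 was at 0 in control replicate 3 against 0.114 to 0.158 CPM (gap 0.722). Krt17 in control replicate 4 was 0.125 CPM and Krt76 in control replicate 2 was 0.0527 CPM, each against 0 in the other controls (gap 1.000 for both).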

How the results depend on the processing

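Krt8, Krt18, Krt19 and Vim were called higher in all 18 alternative fits, as were Krt20 and Krt5, which had to differ since no control library reached 10 counts, while the calls of Krt23 and Krt7 changed in some, as given beside their values. Between 6 and 8 members were called higher over these fits, and none lower. With total-count scaling 9179 genes were called higher and 2526 lower in place of 5564 and 5058, while the median log2 fold change of all genes moved from 0.05 to 0.56. No keratin was then called lower (0 in place of 1), and 2 companion genes in place of 4. With the replicate number as a block, 5416 genes were called higher and 4909 lower, and Krt23 was the only member that lost its call. Same-numbered samples had correlations of -0.177 to 0.042 between their deviations, and 1 of 5 dosed samples correlated best with its own number, so they share only a number. Paired by number, the differences of the ratios were 1.34 (Krt19 over Krt18), 8.50 (Krt20 over Krt18) and -1.41 (Krt7 over Krt8), each with an adjusted exact permutation p of 0.0833, since 5 pairs cannot reach 0.05. Leaving out each sample gave 0.396 to 0.665 for Krt18 over Krt8. With other pseudocounts Krt20 over Krt18 ran from 6.51 to 9.09. Depth limits Krt14 and Krt17, which had at most 18 counts in a library.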
